A study of Homo sapiens with 6 samples.

Results

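The 10 genes described here encode core ligands and receptors of 3 related growth factor systems: PDGFA, PDGFB, PDGFRA and PDGFRB of the platelet-derived growth factor (PDGF) system, VEGFA, VEGFC, KDR, FLT1 and FLT4 of the vascular endothelial growth factor (VEGF) system, and ANGPT2 of the angiopoietin system. They were taken by symbol from the 40396 genes of the expression table, all 10 were found, and 9 reached the minimum for testing, an average of 0.5 FPKM across the 6 libraries. FPKM is the number of fragments of a gene scaled by its length and by the library total, so levels of different genes can be compared. The cells were H1, a human embryonic stem cell line, differentiated to definitive endoderm (DE), the germ layer that gives rise to gut, liver and pancreas. All cells received 50 ng/mL activin A for 3 days and 2.5 µM CHIR99021, which activates Wnt signaling, for the first 24 h. The SAR group (n = 3) received 0.5 µM saracatinib (SAR), known as an inhibitor of Src family kinases, over all 3 days, and the control group (n = 3) received DMSO of the same volume. The authors report that Src phosphorylation was not effectively lowered at this dose, while that of focal adhesion kinase was lowered at some sites. RNA was sequenced at the end of day 3, with 1 library per sample. H1 is 1 line, and whether the 3 samples of a group came from separate cultures is not stated, so the p-values measure the spread between these samples, which may be technical.

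PDGF and VEGF ligands are secreted dimers that bind receptor tyrosine kinases, and both receptor classes pass signals to Src family kinases, PI3-kinase, phospholipase C gamma and the Ras pathway. Angiopoietins act on the receptor TEK (TIE2): ANGPT1 activates it, and ANGPT2 acts as a context-dependent antagonist or weak agonist. In the embryo, PDGFRA marks mesoderm and primitive endoderm, and KDR marks the precursors of blood and vessel cells. In adult tissue, most of these receptors are known from endothelium and from the mural cells around it.

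Of the 9 genes tested, SAR upregulated 3 and downregulated 0, where both words require an adjusted p-value below 0.05 together with a log2 fold change beyond 1 in that direction. Of all 16371 tested genes, 3.41% were upregulated and 1.58% were downregulated by the same rule. The genes were chosen with earlier results of these data known, so the counts describe them and are not a test of the set. The upregulated genes were the ligands ANGPT2 and PDGFA and the receptor FLT4. VEGFA nearly doubled with a small adjusted p-value and lay just short of the fold change threshold. KDR was slightly lower with SAR, and the PDGF receptors PDGFRA and PDGFRB, the ligand PDGFB and the receptor FLT1 did not pass the test. By the adjusted p-value alone, 4 of the 9 genes were higher (23.7% of all tested genes) and 1 was lower (9.55%). The groups were apart for 5 of the 9 genes (50.7% of all tested genes), with SAR on top for 4 (35.5%) and underneath for 1 (15.2%). After median-ratio rescaling, 2 of the 9 genes were upregulated (2.46% of all tested genes) and 0 downregulated (2.21%), with 4 higher (13.8%) and 1 lower (15.5%) by the adjusted p-value alone. On recovered fragment counts with voom weights, 3 were upregulated (4.21%) and 0 downregulated (1.81%), with 4 higher (27.5%) and 1 lower (11.1%).

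**Figure D1:**
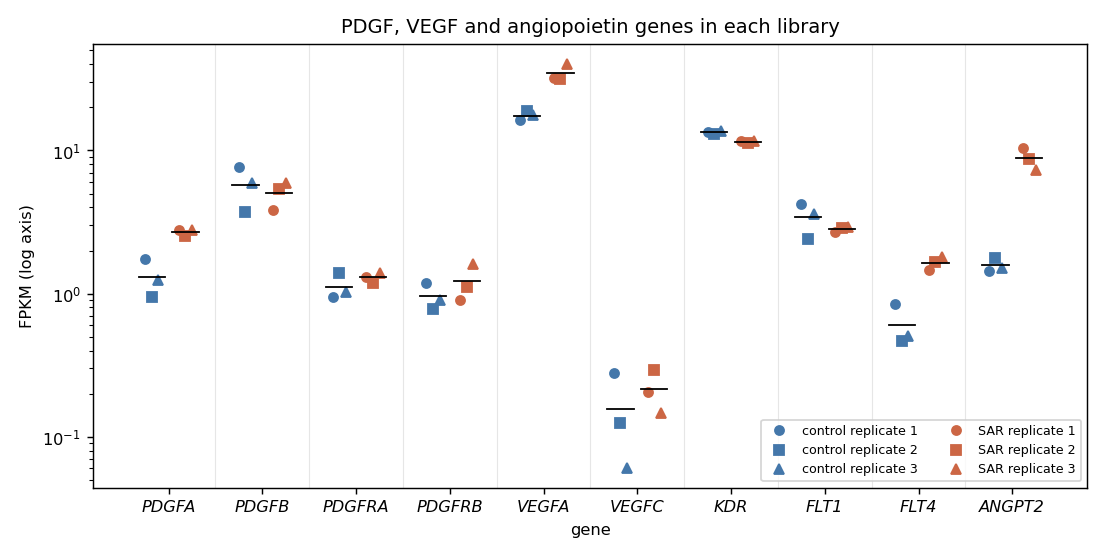
FPKM on a log axis for the 10 genes, with 1 symbol per library (control blue, SAR orange) and a black line at each group mean (n = 3). The groups are apart for PDGFA, VEGFA, KDR, FLT4 and ANGPT2 and overlap for the other 5 genes.

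The libraries held between 16681280 and 24419937 fragments, and the fragment counts behind the FPKM of the 10 genes could be recovered as whole numbers. Control replicate 1 stood apart from the others, with 33169 genes above 0 FPKM against 29506 to 30109 in the other 5 libraries. It was the highest of the 3 control libraries in 6 of the 10 genes (42.4% of all tested genes), so the main counts were also taken without it. Then 3 of the 9 genes were upregulated (4.41% of all genes tested without it) and 0 were downregulated (1.56%). Across all tested genes the deposited FPKM had a median log2 fold change of 0.12, which median-ratio rescaling of the libraries brought to 0.00. The median over the 9 tested genes was 0.30 as deposited and 0.19 after rescaling. RNA of a whole culture was measured, so fewer cells that express a gene and less RNA per cell cannot be told apart.

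ANGPT2 (ENSG00000091879, chromosome 8, 6499651 to 6563409, minus strand, in GENCODE 29 on GRCh38), the angiopoietin that counters ANGPT1 in many settings, had the largest change of the 9 genes. Its FPKM were 1.44, 1.78 and 1.51 in control (replicates 1, 2 and 3, an order kept throughout) and 10.4, 8.65 and 7.32 with SAR. The lowest SAR library was thus several times the highest control library, and the 3 control libraries were close to each other. The mean rose from 1.58 ± 0.179 to 8.80 ± 1.56 FPKM (SD, n = 3), which is 5.59 times the control mean. The log2 fold change was 2.40 (95% interval 2.06 to 2.74, standard error 0.142, adjusted p = 0.000238 from limma). These levels rested on 194 to 295 fragments per control library and 915 to 1183 per SAR library. The gene lies opposite to MCPH1, and 1.15% of its exon bases overlap exons on the other strand.

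The other angiopoietin with a testable level moved the opposite way. ANGPT1, the activating ligand of TEK, was at 1.22, 1.25 and 0.944 FPKM in the control replicates and at 0.185, 0.323 and 0.206 in the SAR replicates, without overlap. It was downregulated (log2 fold change -1.89, 95% interval -2.51 to -1.27, adjusted p = 0.00324 from limma), on 127 to 218 fragments per control library and 22 to 39 per SAR library. Within each library, the log2 ratio of ANGPT2 to ANGPT1, taken like all ratios here after 0.1 was added to both FPKM, was 0.22, 0.47 and 0.63 in control and 5.21, 4.37 and 4.60 with SAR. Per length, ANGPT2 was somewhat above ANGPT1 in every control library, and with SAR every library held far more ANGPT2 than ANGPT1. The difference of the means was 4.29 on the log2 scale, or 19.5-fold on that scale, with p = 0.1 in a two-sided exact permutation test and 0.2 adjusted over 6 ratios. With 3 libraries against 3, 0.1 is the smallest p-value this test can give. With a pseudocount of 1 the difference was 2.71.

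ANGPT4, the third angiopoietin, was between 0.294 and 0.457 FPKM in every library and was not tested. TEK, the angiopoietin receptor, was at 2.73, 1.41 and 2.06 FPKM in control and 1.39, 1.35 and 1.22 with SAR, and did not pass the test (log2 fold change -0.56, 95% interval -1.09 to -0.04, adjusted p = 0.09 from limma, 0.0203 to 0.199 over 15 alternatives of the processing). Without control replicate 1 the log2 fold change of TEK was -0.35. The groups did not overlap, but control replicate 2 lay close to the SAR libraries. TIE1, a receptor related to TEK, was between 0.215 and 0.308 FPKM in 5 libraries and at 0.606 in control replicate 1. PTPRB, the phosphatase that acts on TEK, was between 0.0206 and 0.0561 FPKM in 5 libraries and at 0.157 in control replicate 1, and SVEP1, a matrix protein that binds TIE1, was between 0.0577 and 0.0843 in 5 libraries and at 0.248 in control replicate 1. These 3 genes were not tested, and in each of them control replicate 1 was the highest library.

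Of the VEGF ligands, VEGFA (ENSG00000112715, chromosome 6, 43770184 to 43786487, plus strand), the main driver of vessel growth, had the highest level of the 10 genes in both groups. Its FPKM were 16.2, 18.8 and 17.6 in control and 32.3, 31.5 and 40.1 with SAR. The highest control library was well under the lowest SAR library, and SAR replicate 3 was the highest of all. The mean rose from 17.5 ± 1.28 to 34.6 ± 4.71 FPKM (SD, n = 3), with a log2 fold change of 0.97 (95% interval 0.73 to 1.22, standard error 0.105, adjusted p = 0.00147 from limma). It was therefore higher with SAR by the test but not counted as upregulated. Without control replicate 2, SAR replicate 1 or SAR replicate 2 it passed the fold change threshold, at 1.03, 1.02 and 1.04, and after median-ratio rescaling it was 0.85. With 4784 to 10632 fragments per library, counting error was small beside the spread between libraries. An antisense gene overlaps 1.3% of its exon bases.

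VEGFC (ENSG00000150630, chromosome 4, 176683538 to 176792727, minus strand), the ligand of FLT4 that drives lymphatic vessel growth, was the lowest of the 10 genes and was not tested. It stood at 0.279, 0.125 and 0.0608 FPKM in control and at 0.206, 0.293 and 0.146 with SAR, on 3 to 16 fragments per library, and the groups overlapped. At this depth a difference was not detectable. Fitted without a filter on low values, VEGFC was at a log2 fold change of 0.37 with a standard error of 0.412 (adjusted p = 0.612 from limma). The log2 ratio of VEGFA to VEGFC was between 5.43 and 7.35 in every library, with overlap between the groups (exact permutation p = 0.5, 0.75 adjusted over 6 ratios). The difference of the means, 0.61, was 0.86 with a pseudocount of 1 (exact permutation p = 0.1, the smallest possible), 0.22 without control replicate 1 and 0.33 without SAR replicate 3.

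The other VEGF ligands were given for comparison. VEGFB was at 10.4, 10.8 and 10.9 FPKM in control and 15.0, 12.1 and 12.4 with SAR, which passed the test (log2 fold change 0.29, adjusted p = 0.0439 from limma) but not after median-ratio rescaling (0.17, adjusted p = 0.203, from 0.0302 to 0.203 over its alternatives). PGF, the placental growth factor that binds FLT1, was at 0.818, 0.614 and 0.739 FPKM in control and 0.992, 1.04 and 1.30 with SAR. Its log2 fold change of 0.55 (95% interval 0.13 to 0.98) did not pass (adjusted p = 0.0515 from limma), although the groups did not overlap, and it passed on the recovered fragment counts (0.63, adjusted p = 0.0133 from limma with voom weights, and up to 0.158 in other alternatives). VEGFD, a second FLT4 ligand, was between 0.121 and 0.206 FPKM in every library and was not tested.

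Among the VEGF receptors, FLT4 (ENSG00000037280, chromosome 5, 180601506 to 180649624, minus strand), the receptor of VEGFC and VEGFD, was the 1 gene that was upregulated. Its FPKM were 0.846, 0.467 and 0.509 in control and 1.46, 1.65 and 1.80 with SAR. The groups did not overlap, and control replicate 1 was the control library nearest to the SAR libraries. The mean rose from 0.607 ± 0.208 to 1.63 ± 0.172 FPKM (SD, n = 3), with a log2 fold change of 1.33 (95% interval 0.80 to 1.86, standard error 0.224, adjusted p = 0.00613 from limma). Without control replicate 1 the log2 fold change was 1.56. Fragments numbered 85 to 164 per control library and 215 to 293 per SAR library. With a pseudocount of 1 in place of 0.1, which shrinks low genes most, the log2 fold change was 0.72 and no longer counted as upregulated.

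KDR (ENSG00000128052, chromosome 4, 55078259 to 55125595, minus strand), the main signaling receptor of VEGFA, had the highest level of the 5 receptors in every library. It stood at 13.5, 13.1 and 13.7 FPKM in control and at 11.6, 11.3 and 11.6 with SAR. The libraries of each group were close together, and every SAR library was below every control library. The mean was 13.4 ± 0.289 FPKM in control and 11.5 ± 0.172 with SAR (SD, n = 3), which gave a log2 fold change of -0.22 (95% interval -0.33 to -0.10, standard error 0.0499, adjusted p = 0.0177 from limma). After median-ratio rescaling the change was -0.34 (adjusted p = 0.00451), and without control replicate 3 or SAR replicate 2 KDR no longer passed (adjusted p = 0.0833 and 0.0691 from limma).

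The promoter bases of KDR are shown because KDR was the 1 gene of the 10 that was lower with SAR, and those of PDGFA are given with its values for contrast. The sequences are from RefSeq on GRCh38.p14, whose table held 6 of the 10 genes (not ANGPT2, FLT4, PDGFB and VEGFA). That of KDR is read 5′ to 3′ on the minus strand at chr4:55125596-55125845, the 250 bases just before the first exon in GENCODE 29. Capitals mark GC boxes, the letters GGGCGG or their reverse complement, which transcription factors of the SP and KLF families are known to bind.
KDR: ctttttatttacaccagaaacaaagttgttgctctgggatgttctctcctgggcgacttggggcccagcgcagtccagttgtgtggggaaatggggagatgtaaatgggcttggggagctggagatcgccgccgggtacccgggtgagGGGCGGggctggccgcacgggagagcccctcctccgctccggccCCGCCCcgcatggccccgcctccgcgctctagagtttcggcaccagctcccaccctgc
The window held 2 GC boxes, 1 in each orientation, at a G and C content of 65.2%. At least 1 GC box was found in 42.6% of the same 250 bases of the 35116 promoters in the table. A hypoxia response core, ACGTG, had 0 matches on either strand and was found in 18.5% of all such windows. A forkhead core, TGTTTAC, had 0 matches (2.98% of all windows). A TEAD core, GGAATG, had 0 matches (11.9%). A TATA box, TATAAA, had 0 matches (10.7%). Matches describe letters in this window and not binding.

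FLT1 (ENSG00000102755, chromosome 13, 28300344 to 28495145, minus strand), which binds VEGFA tightly and signals weakly, was at 4.24, 2.40 and 3.60 FPKM in control and 2.70, 2.88 and 2.94 with SAR. The SAR libraries lay within the range of the control libraries, which was wide. The log2 fold change was -0.22 with a 95% interval of -0.68 to 0.23 (adjusted p = 0.401 from limma), so a change of up to that size in either direction was not resolved. Without control replicate 1 it was -0.05, and without control replicate 2 it was -0.45 and passed the test (adjusted p = 0.0334, against up to 0.84 in other alternatives). The log2 ratio of KDR to FLT1 lay between 1.64 and 2.40 and averaged 1.98 in both groups (exact permutation p = 1, also adjusted over 6 ratios). In contrast, the log2 ratio of FLT4 to KDR was -3.84, -4.54 and -4.50 in control and -2.91, -2.71 and -2.63 with SAR, which did not overlap and differed by 1.54 (2.92-fold, exact permutation p = 0.1, 0.2 adjusted over 6 ratios), or by 0.92 with a pseudocount of 1.

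The VEGF co-receptors NRP1 and NRP2 bind semaphorins as well as VEGF. NRP1 was at 1.72, 2.16 and 1.94 FPKM in control and 1.32, 1.55 and 1.35 with SAR, which was lower by the test (log2 fold change -0.43, adjusted p = 0.0332 from limma, 0.00674 to 0.109 over its alternatives). NRP2 was between 6.98 and 10.4 FPKM over the 6 libraries, with a log2 fold change of -0.09 (95% interval -0.43 to 0.24, adjusted p = 0.632 from limma). Whether the changes of the 2 genes differ was not tested.

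Of the PDGF ligands, PDGFA (ENSG00000197461, chromosome 7, 497258 to 520296, minus strand), which signals through PDGFRA, was upregulated. Its FPKM were 1.74, 0.947 and 1.24 in control and 2.77, 2.54 and 2.79 with SAR. The SAR libraries were close together and all above the control libraries, of which control replicate 1 was the highest. The mean rose from 1.31 ± 0.400 to 2.70 ± 0.137 FPKM (SD, n = 3), with a log2 fold change of 1.03 (95% interval 0.56 to 1.50, standard error 0.198, adjusted p = 0.00965 from limma). It rested on 96 to 158 fragments per control library and 179 to 213 per SAR library. The fold change lay at the threshold: it was 0.92 after median-ratio rescaling, 0.85 after quantile normalization, 0.84 without control replicate 2 and 0.70 with a pseudocount of 1, so that PDGFA no longer counted as upregulated, and it was 1.24 without control replicate 1. The adjusted p-value stayed under 0.05 in all of these.

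The promoter bases of PDGFA, from the same RefSeq table, are those at chr7:520297-520476 (180 bases, minus strand, 5′ to 3′), which lie just before its first exon in GENCODE 29, with GC boxes in capitals.
PDGFA: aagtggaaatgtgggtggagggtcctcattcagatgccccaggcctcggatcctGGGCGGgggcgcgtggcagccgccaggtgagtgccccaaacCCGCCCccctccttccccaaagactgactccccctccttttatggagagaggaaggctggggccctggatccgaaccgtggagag
As in KDR, there were 2 GC boxes, 1 in each orientation, and the G and C content was 65.0%. A GC box was found in 31.3% of the same 180 bases of all promoters in the table. The hypoxia response, forkhead and TEAD cores and the TATA box searched in KDR had 0 matches on either strand here, and were found in 12.7%, 2.13%, 8.84% and 7.16% of all such windows. The windows of the upregulated PDGFA and of KDR, which was lower, thus held the same of these motifs. They differ in length and in distance from the RefSeq start, so a TATA box close to that start could have been missed in PDGFA.

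PDGFB (ENSG00000100311, chromosome 22, 39223359 to 39244751, minus strand), which binds both PDGF receptors and recruits mural cells to vessels, had a higher level than PDGFA in every library. It was at 7.68, 3.74 and 5.88 FPKM in control and 3.86, 5.38 and 5.90 with SAR. The SAR libraries lay within the range of the control libraries, and control replicate 1 was the highest library. The log2 fold change was -0.15 (95% interval -0.79 to 0.49, adjusted p = 0.686 from limma), and without control replicate 1 it was 0.08. The log2 ratio of PDGFA to PDGFB was -2.08, -1.88 and -2.16 in control and -0.46, -1.05 and -1.05 with SAR, a difference of 1.18 (2.27-fold) with no overlap (exact permutation p = 0.1, 0.2 adjusted over 6 ratios). PDGFB thus exceeded PDGFA by less with SAR. Of the other PDGF ligands, PDGFC was between 1.36 and 1.96 FPKM (log2 fold change 0.24, adjusted p = 0.155 from limma) and PDGFD between 2.11 and 2.40 (-0.05, adjusted p = 0.651).

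**Figure D2:**
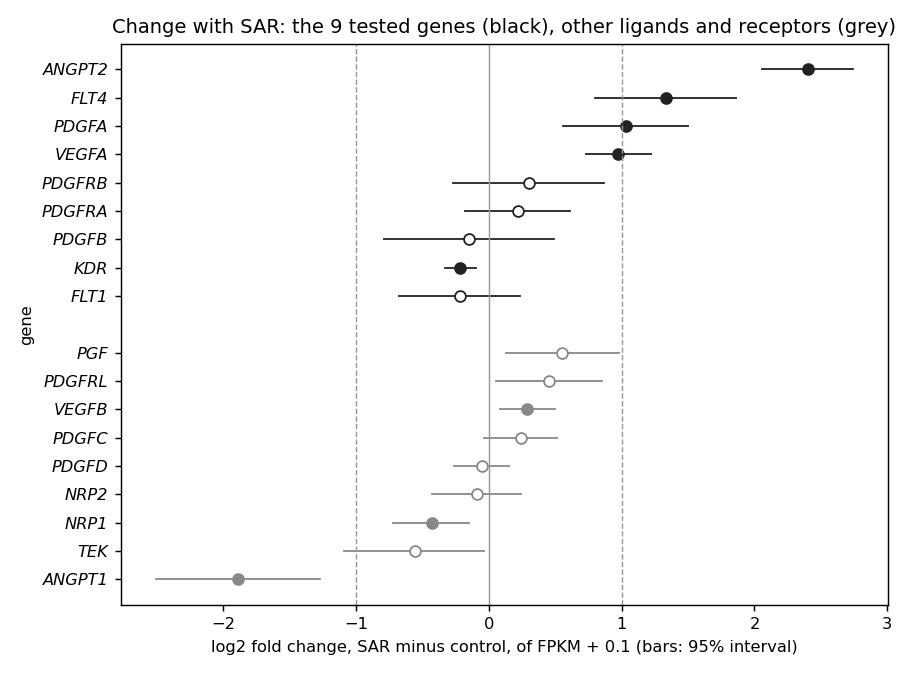
Log2 fold change of SAR against control with its 95% interval for the 9 tested genes (black) and the 9 tested other ligands, receptors and co-receptors (grey), where filled circles have an adjusted p-value under 0.05 (limma) and dashed lines mark -1 and 1. ANGPT2 at 2.40 and ANGPT1 at -1.89 lie farthest from 0 in opposite directions.

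The PDGF receptors were low in both groups and did not pass the test. PDGFRA (ENSG00000134853, chromosome 4, 54229097 to 54298247, plus strand) was at 0.942, 1.39 and 1.02 FPKM in control and 1.31, 1.19 and 1.40 with SAR, a log2 fold change of 0.22 (95% interval -0.18 to 0.61, adjusted p = 0.347 from limma). PDGFRB (ENSG00000113721, chromosome 5, 150113837 to 150155872, minus strand) was at 1.19, 0.781 and 0.898 FPKM in control and 0.907, 1.12 and 1.62 with SAR, a log2 fold change of 0.30 (95% interval -0.27 to 0.87, adjusted p = 0.369). Both genes overlapped between the groups, and the intervals leave room for increases of up to 0.61 and 0.87 on the log2 scale. Without control replicate 1 the log2 fold changes were 0.11 for PDGFRA and 0.45 for PDGFRB, and neither passed the test. The log2 ratio of PDGFRA to PDGFRB lay between -0.31 and 0.76 over the 6 libraries, with means of 0.20 in control and 0.12 with SAR (exact permutation p = 0.9, 1 adjusted over 6 ratios). In GENCODE 29, 15.8% of the exon bases of PDGFRA also belong to another gene on the same strand, so its reads could have been split or dropped by the counting. PDGFRL, a receptor-like gene without a kinase domain, was between 0.880 and 1.71 FPKM and did not pass (0.45, adjusted p = 0.0798 from limma), although the groups did not overlap. MTUS1 lies opposite to 11.5% of the exon bases of PDGFRL.

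**Figure D3:**
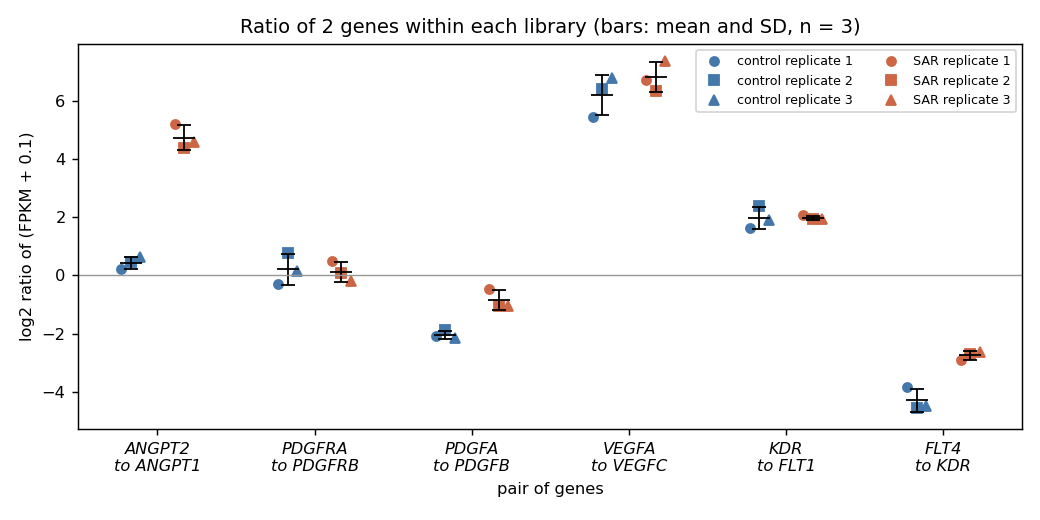
Log2 ratio of the levels (FPKM + 0.1) of 2 genes within each library, with 1 symbol per library (control blue, SAR orange) and the mean and SD of each group (n = 3) in black. The groups are apart for ANGPT2 to ANGPT1, PDGFA to PDGFB and FLT4 to KDR and overlap for the other 3 ratios.

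Ordered by mean FPKM, the 10 genes in control were VEGFA, KDR, PDGFB, FLT1, ANGPT2, PDGFA, PDGFRA, PDGFRB, FLT4 and VEGFC. The ranges over the 3 libraries overlapped between neighbours from PDGFB to FLT1 and from ANGPT2 through to FLT4, so that the order among these is not resolved. With SAR the order was VEGFA, KDR, ANGPT2, PDGFB, FLT1, PDGFA, FLT4, PDGFRA, PDGFRB and VEGFC, and only FLT1 with PDGFA and PDGFRA with PDGFRB overlapped among neighbours. ANGPT2 moved from the fifth to the third place and FLT4 from the ninth to the seventh. The FPKM of the 10 genes summed to 43.5 to 48.0 in the control libraries and to 66.6 to 75.6 in the SAR libraries, most of it VEGFA and KDR.

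Downstream of these receptors, 30 of 33 listed intracellular effectors were tested, and 0 were upregulated or downregulated. By the adjusted p-value alone, 3 were higher and 7 were lower as deposited (23.7% and 9.55% of all tested genes). The median log2 fold change was -0.03 over the 30 genes, against 0.12 over all tested genes. After rescaling, where 13.8% of all tested genes were higher and 15.5% lower, PLCG2 was no longer higher (adjusted p = 0.0687 from limma). GRB2, GAB1, CRK and CRKL were then lower too (adjusted p = 0.0218, 0.0227, 0.0193 and 0.0328 from limma). PIK3CB, a catalytic subunit of PI3-kinase, had the smallest adjusted p-value of the list, at 17.7, 21.0 and 19.7 FPKM in control and 9.76, 9.97 and 10.9 with SAR (log2 fold change -0.92, adjusted p = 0.000767 from limma), and at -1.04 it was downregulated once the libraries were rescaled. The phosphatase PTPN11 (-0.34, adjusted p = 0.00391) and the adaptor GRB10 (-0.48, adjusted p = 0.00401) were also lower, and the adaptor SHC2 was higher (0.63, adjusted p = 0.00107). Among the 14 other ligands, receptors and co-receptors described above, 9 were tested, 0 were upregulated, 1 was downregulated (ANGPT1), and by the adjusted p-value alone 1 was higher and 2 were lower, with a median of -0.05.

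Genes of the response to low oxygen were listed because VEGFA is a textbook target of the hypoxia-inducible factors. The list holds regulators of the response, such as HIF1A, EPAS1, ARNT and VHL, beside genes that respond. Of 22 such genes 20 were tested, and 0 were upregulated, 1 was downregulated, and by the adjusted p-value alone 1 was higher and 6 were lower, with a median log2 fold change of -0.24. These counts are as deposited, where the shares of all tested genes that were higher and lower are the 23.7% and 9.55% given above. After rescaling, where the shares were 13.8% and 15.5%, EGLN3 and PFKFB3 were lower too (adjusted p = 0.0292 and 0.0328 from limma). The downregulated gene was SLC2A3, a glucose transporter, at 1116.7, 1445.5 and 1220.9 FPKM in control and 541.4, 589.4 and 708.1 with SAR (-1.04, adjusted p = 0.00239 from limma). PDK1, a kinase that restrains pyruvate dehydrogenase (-0.75, adjusted p = 0.00467), and BNIP3, a mitophagy receptor (-0.43, adjusted p = 0.0175), were lower, and VHL, which targets the factors for degradation, was higher (0.50, adjusted p = 0.0269) but not after rescaling (0.38, adjusted p = 0.0719). The RNA of HIF1A itself was between 65.6 and 74.4 FPKM (-0.07, 95% interval -0.20 to 0.06, adjusted p = 0.368 from limma). RNA levels do not give the protein level or activity of the factors. Whether these had a part in the change of VEGFA was not tested.

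The cultures were checked for the cell types in which these receptors are best known. Of 20 endothelial markers, 14 were under the 0.5 FPKM minimum, and TAL1, EMCN, ROBO4 and ECSCR were at 0 in at least 1 library. PECAM1 was between 0.0411 and 0.118 FPKM in control and between 0.240 and 0.274 with SAR, on 6 to 38 fragments per library, and CDH5 was between 0.0784 and 0.285 FPKM in all libraries, with overlap. The list summed to 22.7 to 24.9 FPKM in control and 31.7 to 36.4 with SAR, and without EGFL7 and VWF to 4.40 to 8.47 and 5.79 to 6.22, which overlap. Of its 6 tested genes, LMO2 was upregulated (1.31, adjusted p = 0.00739 from limma), EGFL7 (0.57), VWF (0.78) and CLDN5 (0.81) were higher, SOX18 was lower (-0.97), and TEK did not pass. After median-ratio rescaling SOX18 was downregulated (-1.08, adjusted p = 0.0208 from limma) and LMO2 stayed upregulated (1.21). EGFL7 (0.45) and VWF (0.66) stayed higher, and CLDN5 only just passed (0.70, adjusted p = 0.0482). LMO2 and SOX18 are transcription regulators, EGFL7 and VWF secreted proteins and CLDN5 a junction protein. Of 14 mural cell and fibroblast markers, 7 were tested, and DES was higher (0.91) and TAGLN lower (-0.47). MYH11 was between 0.0209 and 0.178 FPKM, and LUM, DCN and ABCC9 were at 0 in at least 1 library. The mural list summed to 87.4 to 116.2 FPKM in control and 81.4 to 92.2 with SAR, of which TAGLN alone averaged 56.8 and 40.5. Control replicate 1 was the highest control library for 15 of the 20 endothelial and 13 of the 14 mural markers. Of all tested genes, 3.41% were upregulated and 1.58% downregulated, and by the adjusted p-value alone 23.7% were higher and 9.55% lower. The part of such cells in the changes of the 10 genes was not tested.

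PDGFRA and KDR are also known from mesoderm, and PDGFRA from primitive endoderm. Of 17 mesoderm markers 4 were tested, TBXT was upregulated (1.69), MIXL1 downregulated (-1.35) and TBX6 higher (0.82), and 7 were at 0 in at least 1 library. The mesoderm list summed to 49.9 to 54.4 FPKM in control and 27.8 to 40.2 with SAR. Without MIXL1, which made up most of it in control, the sums were 6.62 to 8.93 and 14.6 to 18.4. Most of what then remained with SAR was TBXT, so these sums do not show a rise of the mesoderm markers in general. Of 13 primitive endoderm and yolk sac markers 9 were tested. Among them, 3 were higher (LAMB1 at 0.57 and DAB2 at 0.86 included) and 3 were lower (COL4A1 at -0.42 included). TTR was at 0 in at least 1 library. This list summed to 263.9 to 282.5 FPKM in control and 242.9 to 257.4 with SAR. Most of that was SPARC, with means of 167.1 and 137.7 FPKM, so these sums do not show a fall of the list in general. All 12 DE markers were present at a testable level, with a median log2 fold change of -0.30. Of these, 4 were upregulated, FOXA1 (2.54), FOXA2 (1.44), SOX17 (1.06) and HHEX (1.03), and 4 were downregulated, GSC (-1.48), EOMES (-1.36), CER1 (-1.28) and GATA4 (-1.05). By the adjusted p-value alone 5 were higher and 6 lower. After median-ratio rescaling SOX17 (0.93) and HHEX (0.90) were higher by the test but no longer counted as upregulated. FOXA1 (2.42) and FOXA2 (1.32) stayed upregulated, and the downregulated markers stayed downregulated. Of 11 pluripotency markers 10 were tested, of which NANOG was downregulated (-1.30) and 3 were higher, SOX2 (0.88), LIN28A (0.20) and TDGF1 (0.20). After median-ratio rescaling LIN28A (0.08, adjusted p = 0.31 from limma) and TDGF1 (0.07, adjusted p = 0.415) were no longer higher. SOX2 still was (0.76, adjusted p = 0.023). For each of these lists, the shares of all tested genes were 3.41% upregulated, 1.58% downregulated, 23.7% higher and 9.55% lower. The share of each cell type in the cultures was not analysed here.

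Among 12657 other genes with a symbol and a mean of at least 1 FPKM, those whose log2 level followed ANGPT2 most closely over the 6 libraries were TSPAN3 (Pearson r 0.9993), CCDC160 (0.9983) and KCNN1 (0.9980). For FLT4 they were DPYSL2 (0.9996), PLPP7 (0.9993) and CAMKK1 (0.9984), and for PDGFA they were LEAP2 (0.9978), ZNF330 (0.9965) and POLR2E (0.9957). The log2 fold changes of these 9 genes lay between 0.13 and 1.10, each smaller than that of the gene it followed. All points share the 6 libraries in 2 groups, and 1166, 763 and 629 genes had an r above 0.95 with ANGPT2, FLT4 and PDGFA.

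**Figure D4:**
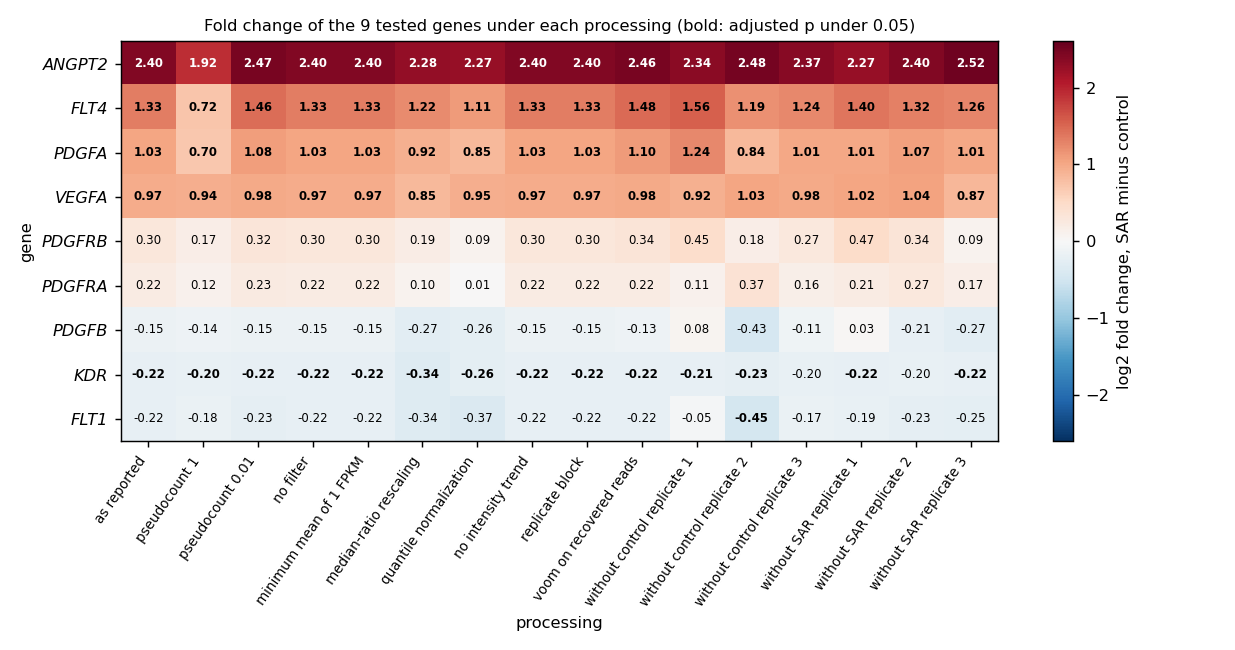
Log2 fold change of the 9 tested genes (rows) as reported and under 15 alternatives of the processing (columns), with the value in each cell, in bold where the adjusted p-value was under 0.05 (limma). ANGPT2 lies between 1.92 and 2.52, and ANGPT2, VEGFA, PDGFA and FLT4 are in bold in every column.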

How the data were processed

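Poly(A) RNA of 6 samples was sequenced as paired-end reads. The authors deposited FPKM for 40396 Ensembl genes, 1 column per library without pooling. The submitters' processing notes name HISAT2, featureCounts (Subread), DESeq2 and GRCh38.p13, and no annotation release or strand setting. The 16371 genes averaging 0.5 FPKM or more were log2-transformed after addition of 0.1 and fitted with limma 3.58.1 under R 4.3.3 (lmFit, then eBayes with trend), and p-values were adjusted over all of them by Benjamini-Hochberg. Fold changes on the log2(FPKM + 0.1) scale understate low genes. Ratios within a library were compared with a two-sided exact permutation test.

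Fragment counts were recovered as the smallest whole numbers that give a gene's FPKM in the 6 libraries with a whole-number length (tolerance 0.02 reads), which 40394 genes had. The library totals were derived from the commonest FPKM ratios of low genes and GENCODE 29 exon lengths, which equalled the recovered length in 56.2% of genes. The counts give depth for counting error and were the input of the voom alternative. They were not used in the main fit.

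Groups and replicate numbers came from the sample titles. Symbols were attached to 30235 of the IDs. The genes, the lists and the rule for naming genes (all 10 genes, all genes of the list of other ligands and receptors, and of each further list the called genes, up to 4 with the smallest adjusted p-values and defining markers) were chosen with earlier results of these data known. The limma script was tested on simulated data. Alternatives were other pseudocounts and filters, median-ratio and quantile scaling, no trend, a replicate block, no minimum fold change, each library left out, and limma voom on the recovered counts, added after seeing the data. Python 3.11.15 with pandas 2.3.3, numpy 2.4.6, scipy 1.17.1 and matplotlib 3.10.9 made the summaries and plots.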

Additional observations from a re-analysis of the deposited data

How the results depend on the processing

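Over the 15 alternatives, ANGPT2 remained upregulated (1.92 to 2.52), FLT4 lost its fold change only with a pseudocount of 1 (0.72), and the adjusted p-values of VEGFA (at most 0.00915) and PDGFA (at most 0.0372) stayed under 0.05. With a pseudocount of 1, 1 of the 9 tested genes was upregulated, and ANGPT1 was at -0.79 and not called. Without a minimum fold change 1 was lower. With each library left out, PDGFB ranged from -0.43 to 0.08 and was above 0 without control replicate 1 and without SAR replicate 1 (0.03), and NRP2 ranged from -0.23 to 0.05 and was above 0 without SAR replicate 1. Of all tested genes, 559 were upregulated and 259 downregulated. There were 169 and 141 with a pseudocount of 1, 340 and 409 with quantile normalization, 369 upregulated with a minimum mean of 1 FPKM, and 3885 and 1563 without a minimum fold change. Median-ratio rescaling gave 403 and 362, so the share of upregulated genes depends on the scaling. With each library left out, upregulated genes numbered 440 to 722 and downregulated genes 215 to 338. The difference in the log2 ratio of PDGFRA to PDGFRB, -0.08, ranged from -0.34 to 0.20 with each library left out, and that of KDR to FLT1, 0.01, from -0.16 to 0.21, and was -0.02 with a pseudocount of 1. The order of the 10 genes by level was the same after rescaling. The cause of these shifts was not tested.

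Same-numbered libraries correlated at 0.0729, 0.00286 and 0.0247 in their deviations from the group means, and differently numbered ones at -0.0833 to 0.0667. With 3 libraries per group these values cannot show whether libraries were paired, and the labels do not state it. With the replicate as a block, 546 genes were upregulated and 274 downregulated, and 3 of the 9 genes were upregulated, the same number as without the pairing. Depth limits VEGFC, at 3 to 16 fragments per library.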
